A study of Mus musculus with 4 samples.

Results

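The expression of 10 genes of fat storage and release was followed in cells of mouse subcutaneous fat that were positive or negative for Mmp3, the matrix metalloproteinase stromelysin-1. They were the perilipins Plin1, Plin2, Plin3 and Plin4, the droplet protein Cidec, the lipases Pnpla2, Lipe and Mgll, and the lipase regulators Abhd5 and G0s2. They were chosen by name, with earlier results of these data known, and made up 10 of the 35580 genes to which transcripts were matched. Both groups, Mmp3-positive and Mmp3-negative, came from the stromal vascular fraction of wild-type C57BL/6 mice, which holds the cells left when adipocytes are removed from digested fat. There were 2 libraries per group, called set 1 and set 2 in each. The sources used here gave no age, sex, number of mice per library or sorting method. No label ties the sets to different mice, so the p-values reflect the spread of these libraries, which could be technical.

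Neutral fat is kept in lipid droplets, whose surface is coated by perilipins. Its breakdown runs in order through adipose triglyceride lipase (Pnpla2), hormone-sensitive lipase (Lipe) and monoglyceride lipase (Mgll). Abhd5 activates the first of these enzymes and G0s2 inhibits it, and in adipocytes Plin1 holds Abhd5 back until protein kinase A phosphorylates the coat. Plin1, Plin4 and Cidec are known chiefly from adipocytes, while Plin2 and Plin3 coat droplets in most cell types.

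The libraries held 17693755 to 20286221 estimated counts. Mmp3 stood at 4161 and 3409 CPM in the Mmp3-positive libraries, against 106 and 130.5 CPM in the Mmp3-negative libraries, in the direction of the labels. CPM here are counts scaled to the library total and normalised by TMM, a correction for library composition. Markers of stromal fibroblasts were abundant in both groups, with a summed level of 30790 and 38700 CPM over 15 genes in Mmp3-positive cells, against 22600 and 31830 CPM in Mmp3-negative cells. Of 19 adipocyte markers, 5 had no count in any library (Lep, Pck1, Adig, Thrsp and Lgals12), and adiponectin (Adipoq) had 50 counts in Mmp3-positive replicate 1 and 0 in the other libraries. Others of the 19 were detected, and 10 had enough counts to be tested. Lipoprotein lipase (Lpl), the most abundant, stood at 122.5 and 88.6 CPM in Mmp3-positive cells, against 116.8 and 65.7 CPM in Mmp3-negative cells.

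The sequences just upstream of 3 genes are shown: Pnpla2 and Plin4, which had the lowest p-values of the 10, and Plin2, which had the highest level. Each is the 250 bases before the RefSeq start on GRCm38.p6, read on the gene's strand. Capitals mark matches on either strand. The GC box was searched as GGGCGG and the CCAAT box by the letters of its name. The core site bound by nuclear receptors was searched as AGGTCA.
Pnpla2: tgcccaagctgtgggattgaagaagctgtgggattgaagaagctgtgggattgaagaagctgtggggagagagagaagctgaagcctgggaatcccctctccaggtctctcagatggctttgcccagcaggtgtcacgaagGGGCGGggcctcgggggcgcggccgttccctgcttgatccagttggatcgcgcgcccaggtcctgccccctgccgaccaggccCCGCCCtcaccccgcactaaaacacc
Plin4: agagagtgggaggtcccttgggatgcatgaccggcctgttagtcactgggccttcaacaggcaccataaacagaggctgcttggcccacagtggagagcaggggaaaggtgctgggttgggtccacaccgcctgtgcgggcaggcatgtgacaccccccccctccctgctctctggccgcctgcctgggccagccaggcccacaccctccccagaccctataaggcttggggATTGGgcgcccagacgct
Plin2: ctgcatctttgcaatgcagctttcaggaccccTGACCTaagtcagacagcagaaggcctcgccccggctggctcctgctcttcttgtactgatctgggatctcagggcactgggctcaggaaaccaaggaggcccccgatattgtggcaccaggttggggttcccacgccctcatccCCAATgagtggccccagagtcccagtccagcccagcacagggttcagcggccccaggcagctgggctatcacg
These windows lay at chr7:141454938-141455187 on the plus strand (Pnpla2), chr17:56109783-56110032 on the minus strand (Plin4) and chr4:86670060-86670309 on the minus strand (Plin2). The Pnpla2 window held a GC box at 104 to 109 and another at 21 to 26 bases before the start. The Plin4 window held a CCAAT box at 14 to 18 bases before the start. The Plin2 window held a CCAAT box at 69 to 73 and a nuclear receptor core site at 213 to 218 bases before the start. Over 32851 such windows of all genes, 32.7% held a GC box, 33.9% a CCAAT box and 14% the core site.

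All 10 genes had a window, and Lipe, Mgll and Cidec had a second one. Both strands were searched for 12 motifs in the 13 windows. A GC box stood in a window of 6 genes (Abhd5, G0s2, Lipe, Mgll, Plin3 and Pnpla2), and a CCAAT box in windows of Plin2, Plin3 and Plin4. The nuclear receptor core site stood in windows of Abhd5 and Plin2. Lipe and Mgll each had a FoxO site (TGTTTAC, in 3.17% of all windows) and an E-box (CACGTG, in 6.02%). The short cAMP site TGACG (17.8% of all windows) stood in windows of Abhd5 and G0s2, and an AP-1 site (TGAGTCA, 4.46%) in one of Cidec. No match was found in these windows for the PPAR direct repeat AGGTCANAGGTCA, which contains the core site (0.0335% of all windows), the full cAMP response element TGACGTCA, which contains the short site (1.55%), the heat shock core GAANNTTC (6.69%), the C/EBP palindrome TTGCGCAA (0.164%) or the TATA box TATAAA (12.4%).

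The comparison asked how expression differed between Mmp3-positive and Mmp3-negative cells. Transcripts of 9 of the 10 genes were detected well enough to be tested, and Cidec had no count in any library. None of the 9 passed edgeR's quasi-likelihood test with Benjamini-Hochberg adjustment over 14185 genes (adjusted p between 0.480 and 0.999, threshold 0.05). In the whole fit 0.0211% of genes passed, 0.00705% higher (1 gene) and 0.0141% lower (2 genes). At an unadjusted p under 0.05 there were 2 of the 9, Pnpla2 and Plin4, both with lower values in Mmp3-positive cells, beside 8.87% of all genes tested in either direction and 3.25% on the lower side. The DESeq2 Wald test called both genes lower, with 4.18% of all genes called lower and 5.46% higher.

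The 2 libraries of each group did not overlap for 5 genes, each lower in the Mmp3-positive libraries (Pnpla2, Plin4, Plin3, Plin2 and Mgll), and for 0 genes in the other direction. Among all genes tested, 17.3% were lower without overlap and 22.5% higher. The median log2 fold change over the 9 was -0.56, beside 0.02 over all genes tested, and all 9 values were below 0, as were those of 48.9% of all genes tested. Summed over the 10 genes, the level was 303 and 348 CPM in Mmp3-positive cells, against 516 and 507 CPM in Mmp3-negative cells. Most of that gap lay in Plin4 (mean 72.7 against 146.5 CPM) and Pnpla2 (12.6 against 59.9 CPM). Lipe and Abhd5 were nearly level, with log2 fold changes of -0.02 and -0.04. In bulk libraries such as these, fewer cells of a type and less RNA per cell cannot be told apart.

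**Figure D1:**
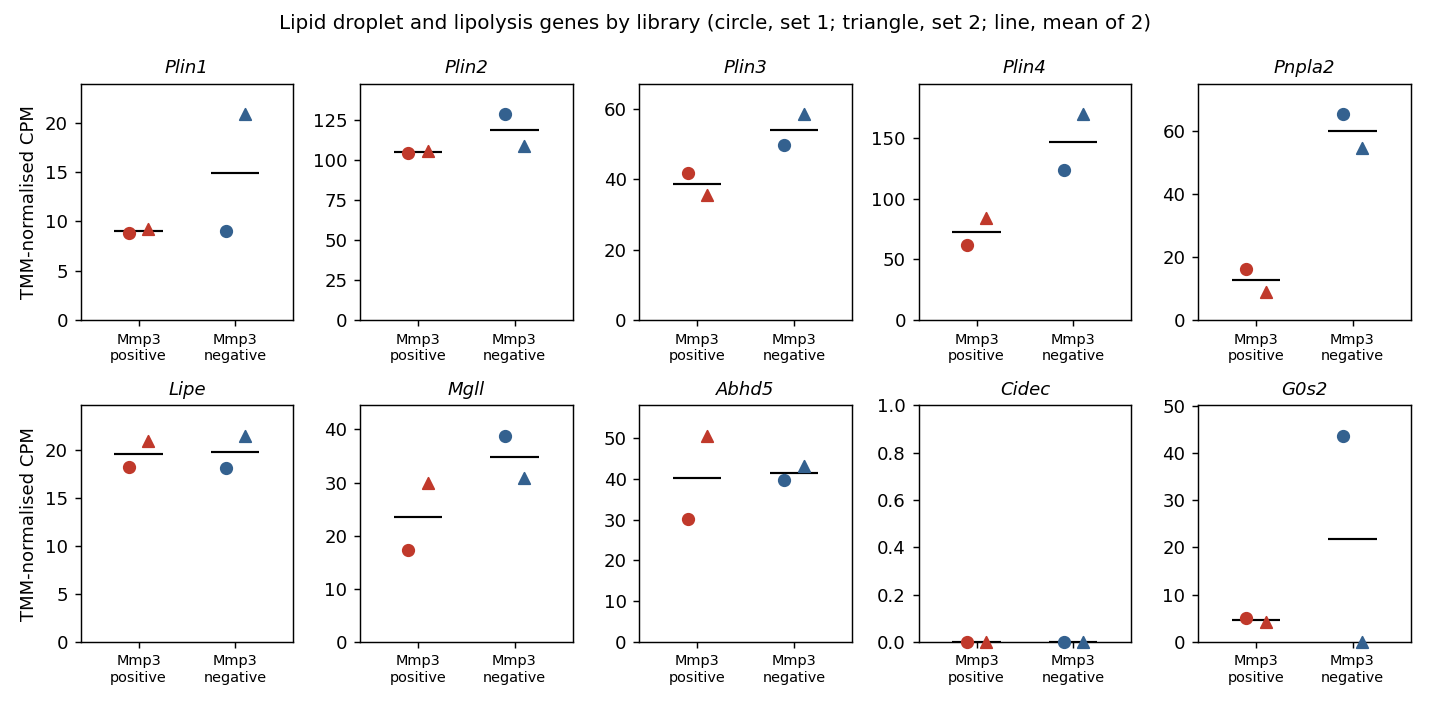
TMM-normalised CPM of each of the 10 genes in each library, Mmp3-positive left of Mmp3-negative (circle, set 1; triangle, set 2; line, mean of 2), with a separate vertical scale per gene. Pnpla2 and Plin4 lie lower in both Mmp3-positive libraries, Lipe is nearly level, Cidec is at 0 throughout and G0s2 is high in a single Mmp3-negative library.

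Among the coat proteins, Plin2 (ENSMUSG00000028494), the general droplet coat, was the most abundant of the 10 genes. Plin2 stood at 104 and 105 CPM in Mmp3-positive cells, against 128 and 109 CPM in Mmp3-negative cells. The Mmp3-positive pair lay just below both Mmp3-negative libraries, and the log2 fold change was -0.18 with a standard error of 0.22 (edgeR adjusted p = 0.998). Per length, Plin2 was at 91.9 and 112.5 TPM in Mmp3-positive cells, against 132 and 133 TPM in Mmp3-negative cells. It held 43.6% and 44.2% of the summed TPM of the 10 genes in Mmp3-positive cells, against 42.9% and 38.9% in Mmp3-negative cells.

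Plin3 (ENSMUSG00000024197), a coat protein that exchanges between cytosol and droplet, stood at 41.7 and 35.5 CPM in Mmp3-positive cells, against 49.8 and 58.4 CPM in Mmp3-negative cells. The groups did not overlap, and the log2 fold change was -0.49 with a standard error of 0.33 (edgeR adjusted p = 0.882).

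Plin4 (ENSMUSG00000002831), which coats small, growing droplets in adipocytes, stood at 61.5 and 83.8 CPM in Mmp3-positive cells, against 123 and 170 CPM in Mmp3-negative cells. Both Mmp3-positive libraries were below both Mmp3-negative ones, with means of 72.7 ± 15.8 CPM against 147 ± 32.6 CPM (SD, n = 2 each). The log2 fold change was -1.01 with a standard error of 0.29 and did not pass (edgeR adjusted p = 0.480), ranking 240 by p among the 14185 genes. On the TPM scale the groups overlapped, at 14.3 and 17.3 TPM in Mmp3-positive cells, against 16.6 and 40.03 TPM in Mmp3-negative cells. TPM values had no TMM correction, and by them 25.9% of all genes tested were higher and 10.9% lower without overlap. Plin4 lies on chromosome 17 of GRCm38 from 56100591 to 56109803 and overlaps Hdgfl2 on the opposite strand. Hdgfl2 was at 249.3 and 293.9 CPM in Mmp3-positive cells and 255 and 274 CPM in Mmp3-negative cells. The strand setting of the counting is unknown here, so reads from shared bases may be in either gene. Plin3 lies near Plin4 on the same chromosome, from 56277476 to 56292873.

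Plin1 (ENSMUSG00000030546), the adipocyte coat that gates lipolysis, was the lowest of the 4 perilipins. It stood at 8.84 and 9.27 CPM in Mmp3-positive cells, against 9.06 and 20.8 CPM in Mmp3-negative cells. The groups overlapped, with Mmp3-negative replicate 2 above the other 3 libraries, and the log2 fold change was -0.72 with a standard error of 1.0 (edgeR adjusted p = 0.999). Without that library the log2 fold change of Plin1 was 0.00026.

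Cidec (ENSMUSG00000030278) promotes droplet fusion in adipocytes, and its 4 transcripts had 0 counts in all 4 libraries. A count of 0 allows up to 3 counts, or 0.158 and 0.153 CPM in the Mmp3-positive libraries and 0.162 and 0.173 CPM in the Mmp3-negative libraries, for counting error only.

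Pnpla2 (ENSMUSG00000025509), the lipase of the first step, had the lowest p-value of the 10 genes. It stood at 16.2 and 8.91 CPM in Mmp3-positive cells, against 65.3 and 54.5 CPM in Mmp3-negative cells. The higher of the Mmp3-positive libraries was still well below the lower Mmp3-negative one, with means of 12.6 ± 5.16 CPM against 59.9 ± 7.63 CPM (SD, n = 2 each). The log2 fold change was -2.25 with a standard error of 0.48, a 4.77-fold lower fitted level in Mmp3-positive cells, and did not pass (edgeR adjusted p = 0.480). It ranked 74 by p among the 14185 genes. On the TPM scale the groups did not overlap either, at 15.4 and 6.30 TPM in Mmp3-positive cells, against 27.4 and 37.1 TPM in Mmp3-negative cells, as for 10.9% of all genes tested on the lower side. Of the 10 genes, 3 were lower without overlap in TPM, Pnpla2, Plin2 and Plin3.

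Lipe (ENSMUSG00000003123), the lipase of the diglyceride step, was at nearly the same level in both groups. It stood at 18.2 and 20.9 CPM in Mmp3-positive cells, against 18.1 and 21.4 CPM in Mmp3-negative cells. The Mmp3-positive values lay within the range of the Mmp3-negative ones, and the log2 fold change was -0.02 with a standard error of 0.63 (edgeR adjusted p = 0.999).

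Mgll (ENSMUSG00000033174), which completes the breakdown to glycerol and also degrades an endocannabinoid, stood at 17.3 and 29.9 CPM in Mmp3-positive cells, against 38.7 and 30.9 CPM in Mmp3-negative cells. The groups did not overlap, though the nearest libraries were close, and the log2 fold change was -0.56 with a standard error of 0.52 (edgeR adjusted p = 0.959). On the TPM scale the means ran the other way, 24.1 ± 6.57 TPM in Mmp3-positive cells against 19.0 ± 7.38 TPM in Mmp3-negative cells (SD, n = 2 each), with overlap. The log2 fold change of Mgll was 0.35 when limma was run on log2(TPM + 1) (adjusted p = 0.946). In that fit the median over all genes tested was 0.31.

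Of the lipase regulators, Abhd5 (ENSMUSG00000032540), the activator of Pnpla2, stood at 30.1 and 50.6 CPM in Mmp3-positive cells, against 39.8 and 43.3 CPM in Mmp3-negative cells. The Mmp3-positive libraries lay on either side of the Mmp3-negative ones, and the log2 fold change was -0.04 with a standard error of 0.41 (edgeR adjusted p = 0.999).

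G0s2 (ENSMUSG00000009633), the inhibitor of Pnpla2, differed most between libraries of the same group. It had 97 and 81 counts in Mmp3-positive cells, against 808 and 0 counts in Mmp3-negative cells. The Mmp3-positive libraries were alike at 5.11 and 4.12 CPM, and the Mmp3-negative libraries lay far above and below them, at 43.6 and 0 CPM. The fitted log2 fold change of -2.24 had a standard error of 2.37 (edgeR adjusted p = 0.988). Without Mmp3-negative replicate 2 it was -3.24 (edgeR adjusted p = 0.0343), when 0.709% of genes were called lower, and without Mmp3-negative replicate 1 it was 9.43 (adjusted p = 0.269). A gene at 0 counts in one library and at least 10 CPM in the other was seen for 56 genes (0.395%) in the Mmp3-positive pair, against 602 genes (4.24%) in the Mmp3-negative pair. G0s2 overlaps Lamb3 on the opposite strand, which had 94 and 1 counts in Mmp3-positive cells, against 197 and 68 counts in Mmp3-negative cells.

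**Figure D2:**
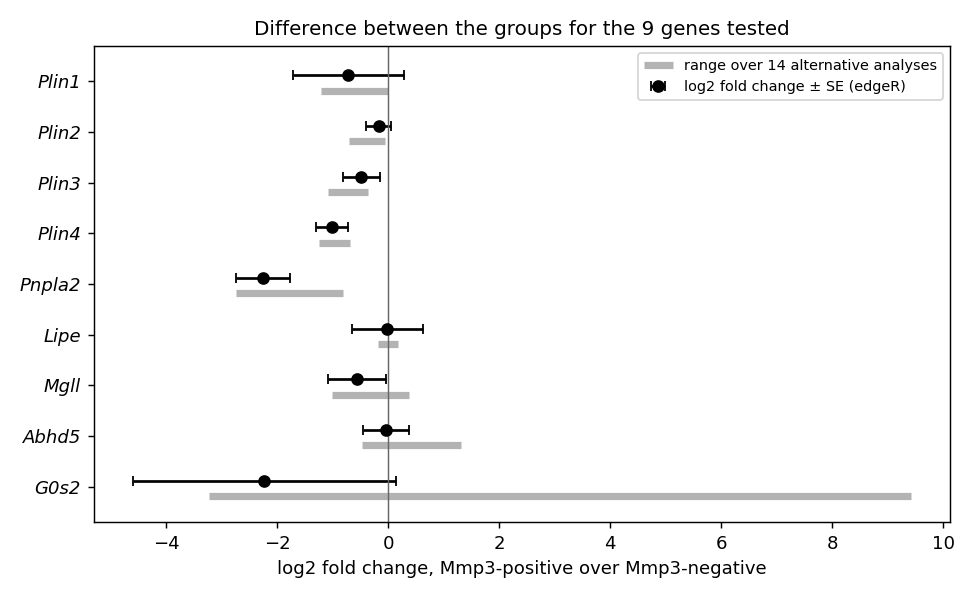
Log2 fold change (Mmp3-positive over Mmp3-negative) of the 9 genes tested, with its standard error (black), and the range over 14 alternative analyses (grey). The values of Plin2, Plin3, Plin4 and Pnpla2 stay below 0 throughout, and G0s2 runs from -3.24 to 9.43.

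Per length, Plin2 led the order in both groups, and its lowest library lay above the highest of any other of the 10 genes. Abhd5 came next with 44.4 ± 33.4 TPM in Mmp3-positive cells and 49.2 ± 22.3 TPM in Mmp3-negative cells (SD, n = 2 each). In Mmp3-positive cells Mgll followed, then Plin4, Plin3, Pnpla2, Lipe, G0s2 and Plin1. The spread of neighbours overlapped from Plin4 down to G0s2, and Plin1, at 4.32 and 4.04 TPM, lay below all of these. In Mmp3-negative cells Pnpla2 came next, at 32.3 ± 6.86 TPM, followed by Plin4, G0s2, Plin3, Mgll, Lipe and Plin1. There, every neighbour from Abhd5 down to Plin1 overlapped the next.

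Ratios of the other lipases to Pnpla2 did not overlap between the groups. The Lipe to Pnpla2 ratio in TPM was 0.702 and 1.32 in Mmp3-positive cells, against 0.166 and 0.411 in Mmp3-negative cells. The Mgll to Pnpla2 ratio was 1.87 and 3.09 in Mmp3-positive cells, against 0.883 and 0.372 in Mmp3-negative cells. Both were higher in the Mmp3-positive libraries without overlap. They share Pnpla2 as denominator, which was itself lower without overlap in TPM, while Lipe and Mgll overlapped. The ratios are therefore not results separate from the Pnpla2 difference. With 2 libraries a group, an exact permutation test could not reach the threshold, so the ratios are given without a test. The Abhd5 to Pnpla2 ratio was 1.35 and 10.8 in Mmp3-positive cells, against 1.22 and 1.75 in Mmp3-negative cells, with overlap in TPM. In counts, with the same denominator gene, it was 1.86 and 5.67 in Mmp3-positive cells, against 0.609 and 0.795 in Mmp3-negative cells, without overlap. The G0s2 to Pnpla2 ratio was 0.608 and 1.07 in Mmp3-positive cells, against 1.71 and 0 in Mmp3-negative cells. Among the perilipins, the Plin3 to Plin2 ratio was 0.169 and 0.105 in Mmp3-positive cells, against 0.153 and 0.199 in Mmp3-negative cells, and the Plin1 to Plin2 ratio 0.0470 and 0.0359, against 0.0195 and 0.0854. These perilipin ratios overlapped between the groups.

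The division of reads among transcripts of a gene differed between libraries of the same group. The 10 genes had 57 annotated transcripts, of which 21 had no count in any library and 7 had counts in all 4. Of the 8 detected genes with more than 1 transcript, 2 had the same leading transcript in every library, Plin1 and Plin4. Plin4-201 and Plin4-202, nearly equal in length at 5755 and 5756 bases, held 56.1% and 55.6% for the first in Mmp3-positive cells, against 57.8% and 55.5% in Mmp3-negative cells.

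For Pnpla2, the leading transcript differed between the groups and also between the Mmp3-positive libraries, and transcript shares were not tested. In Mmp3-negative cells Pnpla2-204, annotated as subject to nonsense-mediated decay, held all of the gene's TPM in replicate 1 and 73.6% in replicate 2, and it held 0% in both Mmp3-positive libraries. There, Pnpla2-201, of the same class, led with 62.6% in replicate 1, and the protein-coding Pnpla2-202 held all of it in replicate 2. Counted over protein-coding transcripts alone, an analysis added after the data were seen, the log2 fold change of Pnpla2 was -0.82 (edgeR adjusted p = 0.9997). Its coding transcripts had 17.8 and 175 counts in Mmp3-positive cells, against 0 and 297 counts in Mmp3-negative cells, with overlap. These shares are kallisto estimates among transcripts that overlap along most of their length.

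Transcript shares of other genes also varied. Plin2-201, its longest transcript, held 77.0% and 47.2% of Plin2 TPM in Mmp3-positive cells, against 12.6% and 51.9% in Mmp3-negative cells. Coding transcripts of Abhd5 held 29.8% and 4.43% of its TPM in Mmp3-positive cells, against 5.81% and 0% in Mmp3-negative cells, and on these alone the log2 fold change of Abhd5 was 1.31 (edgeR adjusted p = 0.9997). The leading transcript of Lipe was Lipe-201 in both libraries of set 1, Lipe-202 in Mmp3-positive replicate 2 and Lipe-203 in Mmp3-negative replicate 2. Mgll led with a different transcript in each of the 4 libraries.

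**Figure D3:**
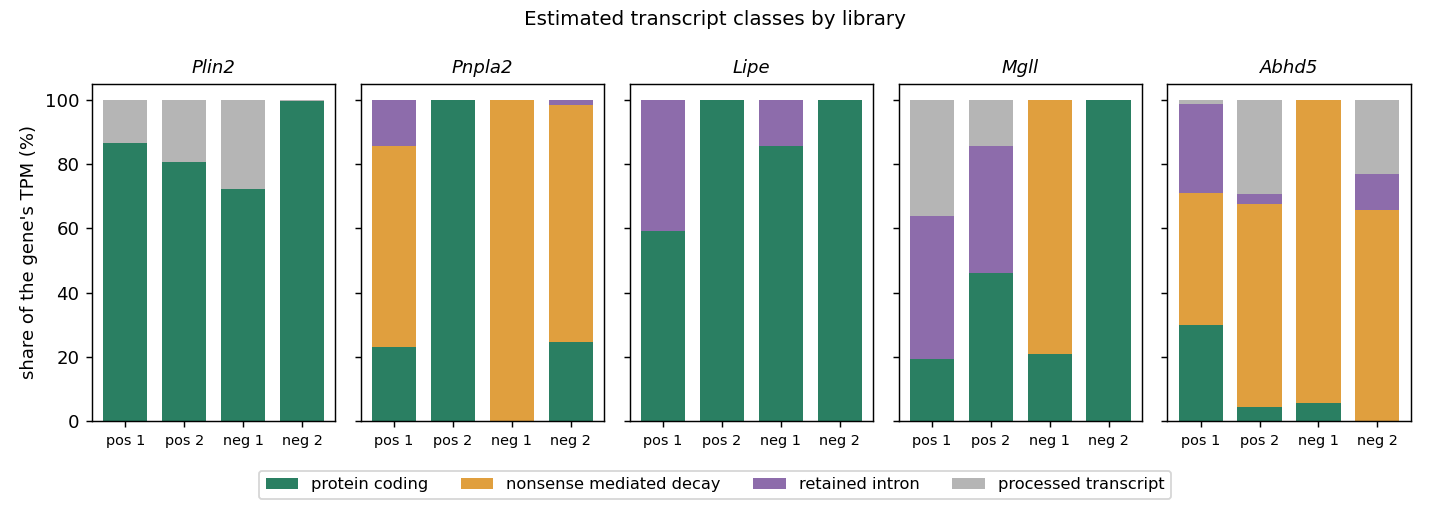
Share of each gene's TPM (%) by annotated transcript class in Mmp3-positive (pos) and Mmp3-negative (neg) libraries 1 and 2, for 5 genes. Shares differ between libraries of one group, and the decay class of Pnpla2 holds 0% in Mmp3-positive replicate 2 and the whole of Mmp3-negative replicate 1.

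Genes around the 10 in the pathway were counted in the same fit, and 0 passed in each of the 5 lists that follow. Beside the counts given for these lists, 22.5% of all genes tested were higher and 17.3% lower without overlap. Of 23 other droplet proteins, 20 were tested, with a median log2 fold change of 0.14, 4 higher and 2 lower without overlap. Aup1 and Faf2, droplet proteins that recruit the ubiquitin machinery, were the most abundant, with log2 fold changes of 0.03 and 0.24. The perilipin Plin5, known from oxidative tissues and chosen after its values were seen, had 66 and 29 counts in Mmp3-positive cells, against 196 and 421 counts in Mmp3-negative cells (log2 fold change -2.81, edgeR adjusted p = 0.622). Of 16 other neutral lipid hydrolases, 12 were tested, with a median of 0.07 and 2 without overlap in each direction. Pnpla6, a lysophospholipase, had a log2 fold change of -0.35, and lipoprotein lipase (Lpl) 0.21.

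Of 15 triglyceride synthesis genes, 13 were tested, with a median log2 fold change of 0.10, 2 higher and 1 lower without overlap. The acyltransferases Agpat3 and Agpat1 had log2 fold changes of 0.03 and 0.25. Of 34 genes of the receptors and cAMP signalling that control lipolysis, 30 were tested, with a median of 0.06 and 7 without overlap in each direction. Gnas, the stimulatory G protein, and Gnai2, an inhibitory one, had log2 fold changes of 0.25 and 0.43. The beta-adrenergic receptor Adrb1 and the niacin receptor Hcar2 had no count in any library. Of 16 transcription factors known to act on these genes, 15 were tested, with a median of 0.01, 3 higher and 2 lower without overlap. Srebf1 had a log2 fold change of 0.22 and Ppard -0.44. The smallest adjusted p in the 5 lists was 0.211, for the insulin receptor substrate Irs2, named after its values were seen, with a log2 fold change of -1.98.

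Markers of mural cells, macrophages and endothelial cells had lower sums in both Mmp3-positive libraries, as the 10 genes did. Mural cell markers summed to 102.5 and 98.0 CPM in Mmp3-positive cells, against 772 and 689 CPM in Mmp3-negative cells. Of the 12, 9 were lower without overlap, and the share of all genes tested, for these 3 lists alike, was 17.3%. Tagln and Acta2, contractile genes, had log2 fold changes of -1.97 and -2.41. Macrophage markers summed to 292 and 334 CPM in Mmp3-positive cells, against 657 and 461 CPM in Mmp3-negative cells, with 8 of the 12 tested lower without overlap. Of 3 macrophage markers named after their values were seen, Adgre1 had 0 counts in both Mmp3-positive libraries, against 57 and 102 in Mmp3-negative cells. Cd163, which was not tested, had 0 counts in both Mmp3-positive libraries, against 177 and 0 in Mmp3-negative cells. Mrc1, also not tested, had 0 and 29 counts in Mmp3-positive cells, against 0 in both Mmp3-negative libraries. Gpnmb and Cd68 had log2 fold changes of -0.30 and -1.63. Most of the macrophage sum in Mmp3-positive cells was Gpnmb alone, at 237 and 276 CPM, against 328 and 304 CPM in Mmp3-negative cells. Endothelial markers summed to 229 and 225 CPM in Mmp3-positive cells, against 428 and 296 CPM in Mmp3-negative cells, with 5 of the 8 tested lower without overlap. Pecam1 and Eng had log2 fold changes of -0.76 and -0.24, and Gpihbp1 and Sox17 had no count in any library.

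Immediate early and heat shock genes summed to 5391 and 5463 CPM in Mmp3-positive cells, against 11480 and 11650 CPM in Mmp3-negative cells. Of the 20, 2 passed, both lower in Mmp3-positive cells. These were the Hsp70 genes Hspa1a (log2 fold change -2.73, edgeR adjusted p = 0.0250) and Hspa1b (-2.43, edgeR adjusted p = 0.0273), a near-identical pair between which reads may be divided either way. No gene was called lower when transcript length was an offset, with protein-coding transcripts alone or by limma on TPM values. Adipocyte markers summed to 257 and 178 CPM in Mmp3-positive cells, against 324 and 167 CPM in Mmp3-negative cells, with overlap. Of these 19 markers 10 were tested, with a median log2 fold change of -0.40, and Lpl and Acsl1, the most abundant, had 0.21 and -0.92. The part of these cell types and stress genes in the values of the 10 genes was not tested.

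**Figure D4:**
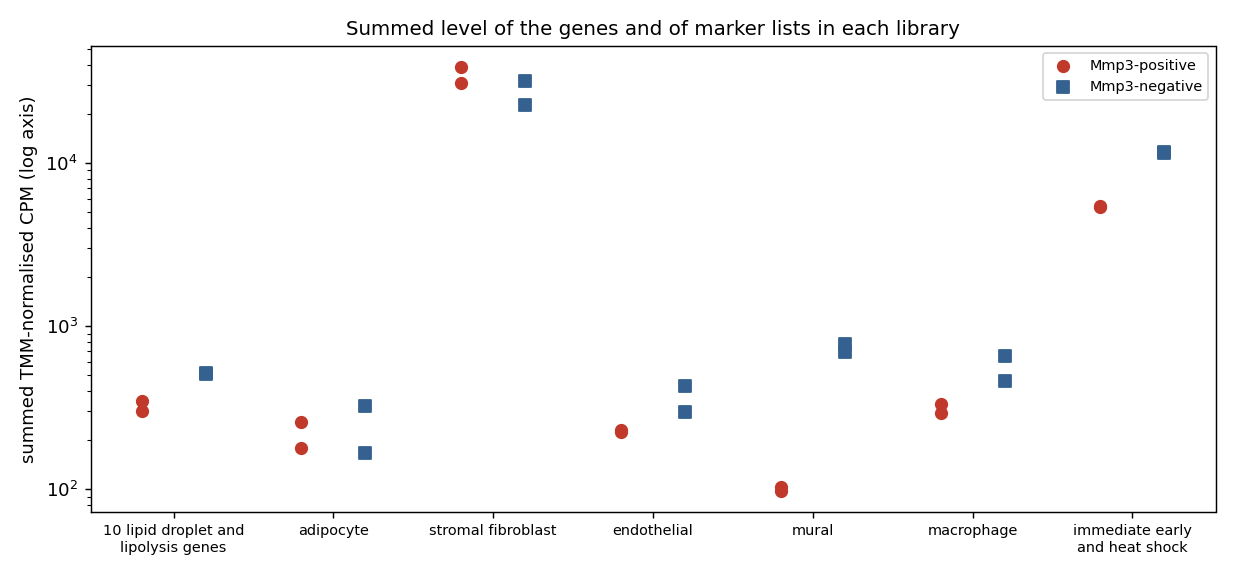
Summed TMM-normalised CPM on a log axis of the 10 genes and of marker lists in each library, Mmp3-positive (circles) left of Mmp3-negative (squares). The 10 genes, mural, endothelial, macrophage and stress sums are lower in both Mmp3-positive libraries, and the adipocyte and stromal fibroblast sums overlap between the groups.

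The remaining marker lists also had 0 genes past the threshold. Brown and beige adipocyte markers summed to 20.1 and 17.9 CPM in Mmp3-positive cells, against 43.2 and 45.0 CPM in Mmp3-negative cells, and Ucp1, the defining gene, had no count in any library. Of the 10 in that list, 3 were tested. Prdm16 and Kcnk3 had log2 fold changes of -0.74 and -5.25, and Kcnk3 had 2 and 9 counts in Mmp3-positive cells, against 123 and 266 in Mmp3-negative cells. Of untested markers named after their values were seen, Cidea (34 counts) and Cox8b (41) had counts in a single Mmp3-positive library only. Cox7a1 (105) had counts in a single Mmp3-negative library only. Lymphocyte markers summed to 7.0 and 9.52 CPM in Mmp3-positive cells, against 37.4 and 5.88 CPM in Mmp3-negative cells. In that list Lck had a log2 fold change of -2.22 and Cd3d -0.24. Schwann cell markers summed to 23.9 and 15.4 CPM in Mmp3-positive cells, against 42.6 and 38.1 CPM in Mmp3-negative cells. Mbp had a log2 fold change of -0.93 and Sox10 -0.74. Mesothelial markers summed to 9.53 and 3.87 CPM in Mmp3-positive cells, against 9.66 and 26.01 CPM in Mmp3-negative cells. Wt1 had a log2 fold change of -1.75, and Krt19 had 115 and 53 counts in Mmp3-positive cells and 0 in both Mmp3-negative libraries, at least 26.1-fold higher against a floor of 3 counts per library (edgeR adjusted p = 0.480). Of the same list, Krt8 and Upk3b, named after their values were seen, lay the other way. Krt8 had 0 counts in both Mmp3-positive libraries, against 19 and 60 in Mmp3-negative cells, at least 14.4-fold lower (edgeR adjusted p = 0.480). Upk3b had 0 counts in both Mmp3-positive libraries, against 13 and 72 in Mmp3-negative cells, at least 15.6-fold lower (edgeR adjusted p = 0.483). The bounds for Krt19, Krt8 and Upk3b are for counting error only and leave out the spread between libraries. Erythroid markers summed to 5.47 and 9.42 CPM in Mmp3-positive cells, against 21.4 and 14.9 CPM in Mmp3-negative cells. Hbb-bs had a log2 fold change of -2.32 and Hba-a2 -0.16. Alas2 and Hba-a1 of that list, named after their values were seen, lay in opposite directions. Alas2 had 52 and 68 counts in Mmp3-positive cells and 0 in both Mmp3-negative libraries (edgeR adjusted p = 0.480). Hba-a1 had 0 counts in both Mmp3-positive libraries, against 181 and 81 in Mmp3-negative cells (edgeR adjusted p = 0.480). Of the 15 stromal fibroblast markers, 9 were higher and 2 lower without overlap, beside 22.5% and 17.3% of all genes tested. Gsn and Col3a1 of that list had log2 fold changes of 0.71 and 0.10.

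By the distance between log2 CPM centred over the 4 libraries, the genes closest to Plin2 among 9809 with an average logCPM of at least 3 were Golga4 (0.0198), Ercc2 (0.0199) and Srrt (0.0391). With 4 libraries and a nearly level profile, such closeness is a description of these values.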

How the data were processed

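The submitters' processing notes name kallisto 0.45.0 and GRCm38. Per the file headers, each deposited table gave the length, effective length, estimated count and TPM of 115270 transcripts. The libraries were strand-specific and depleted of ribosomal RNA, and the extraction kit was one for fixed, embedded tissue, per the labels' protocols. Which transcripts were indexed, and with what strand setting or trimming, was not stated in the labels.

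Transcripts were matched to GENCODE M21 by identifier without version (113580 matched, 1690 left out, with 0.729% to 2.08% of a library's counts). The estimated counts of a gene's transcripts were added up, rounded, filtered with filterByExpr (minimum count 10), scaled by TMM and tested with edgeR 4.0.16 in R 4.3.3, two-sided, with no covariate and 2 residual degrees of freedom. Each standard error was derived from the F statistic, as the fold change (log2) divided by its root. TPM was summed per gene for levels between genes and had no TMM correction. Promoters came from RefSeq (GRCm38.p6).

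The alternatives used DESeq2 1.42.0, limma 3.58.1 on log2(TPM + 1) or log2(TPM + 0.1) (at least 1 TPM in 2 libraries, or no filter), DESeq2 size factors, no count filter, the set number as a block, protein-coding genes alone, a length offset from the effective lengths, each library left out, and, added after the data were seen, protein-coding transcripts alone. The tests were tried on simulated counts. Sums and plots were made in Python 3.11.15 (pandas 2.3.3, matplotlib 3.10.9). The 10 genes and all lists were chosen with earlier results of these data known. Named genes were the 10, Mmp3, the genes of each list past the threshold or else its 2 most abundant tested genes, and the 3 nearest to the most abundant of the 10. Other genes the text names, such as markers with no counts, the genes that overlap Plin4 and G0s2, Plin5, Irs2 and those of the closing section, were outside this rule and were chosen after their values were seen.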

Additional observations from a re-analysis of the deposited data

How the results depend on the processing

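Of the 10 genes, 2 were called with the DESeq2 Wald test (Pnpla2 and Plin4, adjusted p = 1.09e-05 and 0.00426) and 0 to 2 on leaving out each library, where the 2 were Pnpla2 and G0s2 without Mmp3-negative replicate 2. The other alternatives called 0 of them. Pnpla2, Plin2, Plin3 and Plin4 kept their direction under all 14 alternatives, though with protein-coding transcripts alone the Pnpla2 counts overlapped between the groups. The cause of the differences below was not tested.

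Genes called among all tested numbered 3, against 27 with no count filter, 1368 with the DESeq2 Wald test (775 higher, 593 lower), 1 with the length offset (1189 at unadjusted p under 0.05), 1 with protein-coding transcripts alone (1132), 0 with limma on log2(TPM + 1) (972), 0 with log2(TPM + 0.1) (1010), 0 with limma and no TPM filter (1079), and 3 to 353 on leaving out a library, with 332 and 353 without Mmp3-negative replicate 1 or 2. The set number as a replicate block gave 5 called genes, 0 of them among the 10. The correlation of same-numbered deviations was 0.026 over 2 pairs. The labels do not say what a set is, and 2 pairs do not settle whether same-numbered libraries were paired.

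The median log2 fold change of the 9 tested genes (-0.56) was -0.82 when lengths were an offset, -0.36 for limma on log2(TPM + 1), with or without its filter, -0.37 with log2(TPM + 0.1), and -0.76 to -0.37 on leaving out a library. The median of all genes tested was 0.02, against 0.31 with limma on log2(TPM + 1) and 0.12 with the replicate block.

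Directions turned for genes that had not passed. G0s2 was 1.39 with the replicate block, 0.37 with limma on log2(TPM + 1), with or without its filter, and 1.89 with log2(TPM + 0.1). In the same 3 limma fits Lipe was 0.14, 0.14 and 0.18 and Mgll 0.35, 0.35 and 0.37. The median over all genes tested in these fits was 0.31, 0.24 and 0.37. Abhd5 was 1.31 with protein-coding transcripts alone. Leaving out a library gave -3.24 to 9.43 for G0s2, -0.14 to 0.11 for Lipe, -0.47 to 0.28 for Abhd5 and -1.21 to 0.00026 for Plin1. The remaining library of that group was then assumed to vary like the other group.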

Other observations

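Some lipid genes outside the 10, named after their values were seen, had counts in one group and none or next to none in the other. The natriuretic peptide clearance receptor Npr3 had 125 and 134 counts in Mmp3-positive cells and 0 in both Mmp3-negative libraries, at least 40-fold higher against a floor of 3 counts per library (edgeR adjusted p = 0.480). Mettl7b, a droplet-associated methyltransferase, had 54 and 59 counts in Mmp3-positive cells and 0 in both Mmp3-negative libraries, at least 17.4-fold higher (adjusted p = 0.480). The monoacylglycerol hydrolase Abhd6 had 82 and 110 counts in Mmp3-positive cells, against 1 and 0 counts in Mmp3-negative cells (adjusted p = 0.4997). The insulin-responsive glucose transporter Slc2a4 had 0 counts in both Mmp3-positive libraries, against 134 and 144 counts in Mmp3-negative cells, at least 49.9-fold lower (adjusted p = 0.480). Such patterns were common, with 147 of the 14185 tested genes at 0 in both Mmp3-positive libraries and 424 at 0 in both Mmp3-negative libraries. The bounds for Npr3, Mettl7b and Slc2a4 are for counting error only and leave out the spread between libraries.

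The phosphatidate phosphatase gene Lpin2, also named after its values were seen, had 954 and 1394 counts in Mmp3-positive cells, against 352 and 327 counts in Mmp3-negative cells (log2 fold change 1.68, edgeR adjusted p = 0.480). Its groups did not overlap.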
